A study of Mus musculus with 28 samples.

Results

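The sites described here are 1118 summits of trimethylated histone H3 lysine 4 (H3K4me3) that were listed in wild-type mouse neural stem cells with no summit listed in Smchd1 null cells nearby. They were chosen by measured positions: each is a summit of the wild-type H3K4me3 list on an assembled chromosome with no summit of the null H3K4me3 list within 5 kb. They make up 4.77% of the 23449 wild-type H3K4me3 summits, and the 10 summit lists used hold 372380 summits in all. The reverse rule, a null summit with no wild-type summit within 5 kb, found 954 of 24201 null summits, or 3.94%.

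The study mapped Smchd1 and Ctcf binding, H3K4me3, H3K27me3 and DNA methylation in 28 libraries of neural stem cells. All cells were male, of a C57BL/6 x FVB/N cross, derived from E14.5 mouse embryo brain and grown in culture. The genotypes were Smchd1 wild-type and Smchd1MommeD1/MommeD1, which is homozygous for the MommeD1 allele and is called null in the labels. H3K4me3 and H3K27me3 each had 2 libraries per genotype, pooled into 1 list and called against the whole cell extract of that genotype. Ctcf lists came from untransduced wild-type cells, wild-type cells carrying a non-silencing shRNA, and null cells, with 2 libraries each, called against wild-type cells carrying Ctcf shRNAs. Smchd1 in wild-type cells was called against the Smchd1 immunoprecipitate of null cells. Methylated DNA was captured on beads carrying the methyl-CpG binding domain (MBD) of human MBD2, with 3 libraries per genotype. The MBD samples titled for one genotype cite the list named for the other, so no genotype direction is given for MBD. Because each list pools its libraries, no site has a replicate error, and no comparison below has a test across samples. A site missing from the null list may still carry the mark below the calling threshold, and fewer cells with the mark cannot be told apart from less mark per cell.

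H3K4me3 is deposited at active and poised promoters, most strongly over starts rich in CpG dinucleotides, and occurs at lower levels at some distal elements. Smchd1 is a noncanonical structural-maintenance-of-chromosomes protein with roles in X inactivation, imprinted clusters and protocadherin clusters. Ctcf, a zinc finger protein, binds insulators and anchors chromatin loops, and methylated CpG at its motif can hinder its binding. All 12 neural stem cell markers checked, among them Sox2, Nes and Olig2, carried an H3K4me3 summit in wild type within 2 kb of a gene end. In null cells 11 did. The exception was Pax6, whose only wild-type summit there was a wild-type-only site. That site scored 5.52, and the nearest null summit lay 6019 bp from it. In wild type, blood and microglial markers had a summit at 0 of 4 genes and endothelial markers at 1 of 4. Mesenchymal markers had one at 1 of 5, glial markers at 1 of 6 and neuronal markers at 5 of 7.

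The promoters below are shown because CpG content differed between starts next to wild-type-only sites and starts next to other wild-type summits. Each runs from 250 bases before to 50 bases after a RefSeq start on GRCm38.p6, the assembly also named mm10, written 5′ to 3′ on the gene's strand with every CpG in capitals. Abcb9, Slc6a3, Pax6, Fez1, Rab42 and Isl1 each had a wild-type-only summit within 1 kb of the start. Sdhd, whose wild-type summit scored 79.3 and had a null summit within 5 kb, is given for contrast.
Abcb9, chr5:124095749-124096048, minus strand, 23 CpG: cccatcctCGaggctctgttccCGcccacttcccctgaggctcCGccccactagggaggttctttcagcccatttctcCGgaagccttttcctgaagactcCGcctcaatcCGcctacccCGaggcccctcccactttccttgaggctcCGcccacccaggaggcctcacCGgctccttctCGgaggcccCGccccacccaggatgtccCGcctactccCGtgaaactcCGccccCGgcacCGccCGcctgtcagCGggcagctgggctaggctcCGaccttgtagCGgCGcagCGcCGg
Slc6a3, chr13:73536497-73536796, plus strand, 20 CpG: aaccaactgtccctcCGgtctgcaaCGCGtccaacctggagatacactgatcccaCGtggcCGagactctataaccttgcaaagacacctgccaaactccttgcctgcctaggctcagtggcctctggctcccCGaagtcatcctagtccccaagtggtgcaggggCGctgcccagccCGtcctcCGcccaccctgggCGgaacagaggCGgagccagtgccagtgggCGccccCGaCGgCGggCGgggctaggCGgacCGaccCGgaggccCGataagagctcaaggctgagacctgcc
Pax6, chr2:105668646-105668945, plus strand, 18 CpG: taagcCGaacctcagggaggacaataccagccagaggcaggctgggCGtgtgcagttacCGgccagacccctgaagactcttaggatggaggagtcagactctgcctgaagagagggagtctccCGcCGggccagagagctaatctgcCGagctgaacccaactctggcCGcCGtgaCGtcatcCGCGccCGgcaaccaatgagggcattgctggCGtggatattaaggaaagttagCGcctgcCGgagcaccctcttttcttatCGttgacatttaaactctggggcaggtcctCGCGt
Fez1, chr9:36821641-36821940, plus strand, 8 CpG: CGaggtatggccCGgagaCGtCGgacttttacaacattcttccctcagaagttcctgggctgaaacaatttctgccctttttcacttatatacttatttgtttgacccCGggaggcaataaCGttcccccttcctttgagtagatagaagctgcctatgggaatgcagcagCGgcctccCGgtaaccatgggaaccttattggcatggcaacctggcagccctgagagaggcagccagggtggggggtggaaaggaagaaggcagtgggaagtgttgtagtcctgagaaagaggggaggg
Rab42, chr4:132303307-132303606, minus strand, 6 CpG: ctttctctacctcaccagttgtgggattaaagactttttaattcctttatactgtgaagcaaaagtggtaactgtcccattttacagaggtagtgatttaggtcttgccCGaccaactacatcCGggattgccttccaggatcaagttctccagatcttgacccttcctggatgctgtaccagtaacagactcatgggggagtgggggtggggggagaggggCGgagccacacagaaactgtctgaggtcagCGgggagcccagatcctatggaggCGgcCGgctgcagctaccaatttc
Isl1, chr13:116309639-116309938, minus strand, 37 CpG: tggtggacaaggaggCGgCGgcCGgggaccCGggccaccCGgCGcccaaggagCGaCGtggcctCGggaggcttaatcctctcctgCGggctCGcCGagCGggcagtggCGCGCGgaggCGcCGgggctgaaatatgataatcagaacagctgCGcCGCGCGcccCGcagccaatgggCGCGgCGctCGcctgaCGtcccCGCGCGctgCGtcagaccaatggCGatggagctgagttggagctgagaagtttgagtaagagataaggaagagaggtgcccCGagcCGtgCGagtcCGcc
Sdhd, chr9:50603800-50604099, minus strand, 29 CpG: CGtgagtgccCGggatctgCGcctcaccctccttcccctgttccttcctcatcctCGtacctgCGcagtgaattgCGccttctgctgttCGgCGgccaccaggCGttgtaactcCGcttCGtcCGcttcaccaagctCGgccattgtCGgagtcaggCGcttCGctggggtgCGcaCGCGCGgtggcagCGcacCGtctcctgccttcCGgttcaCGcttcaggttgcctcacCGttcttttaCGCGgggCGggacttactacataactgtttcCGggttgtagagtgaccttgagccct

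Abcb9, a lysosomal peptide transporter, had 23 CpG in its 300 bases, a ratio of observed to expected CpG of 0.715. Slc6a3, the dopamine transporter, had 20 and a ratio of 0.620. Rab42, a small GTPase of the Rab family, had 6 and a ratio of 0.302, and Fez1, an adaptor of kinesin transport in axons, had 8 and a ratio of 0.389. Sdhd, a subunit of mitochondrial succinate dehydrogenase, had 29 and a ratio of 1.02. Isl1, a LIM homeodomain factor of motor neurons, had the most CpG of those shown, 37, with a ratio of 1.05, so CpG-rich starts also occur among the wild-type-only sites.

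The summits listed only in wild type were low-scoring. The score, deposited by the authors as −log10 of either a p-value or a q-value, ran from 3.51 to 24.2 with a median of 6.68. The 22331 wild-type summits with a null summit within 5 kb had a median of 27.8 and reached 80.6. The null-only summits had a median of 6.41. Scores took only 208 distinct values among the 1118 sites, so many sites share a score. Of wild-type summits scoring under 5, 22.0% (209 of 948) were wild-type only, and of those scoring 5 to 7, 21.8% (427 of 1958). The share was 14.8% (335 of 2267) at 7 to 10, 2.41% (147 of 6097) at 10 to 25, and 0 of 12179 at 25 and over. The score enters the chance of being listed in either genotype, so these values describe the selection and carry no test. The comparisons of place, CpG ratio at coding promoters, and Ctcf, MBD, Smchd1 and H3K27me3 neighbours are therefore also given within score bins, or weighted to the bin make-up of the wild-type-only sites. Comparisons printed without either do not allow for the score.

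**Figure D1:**
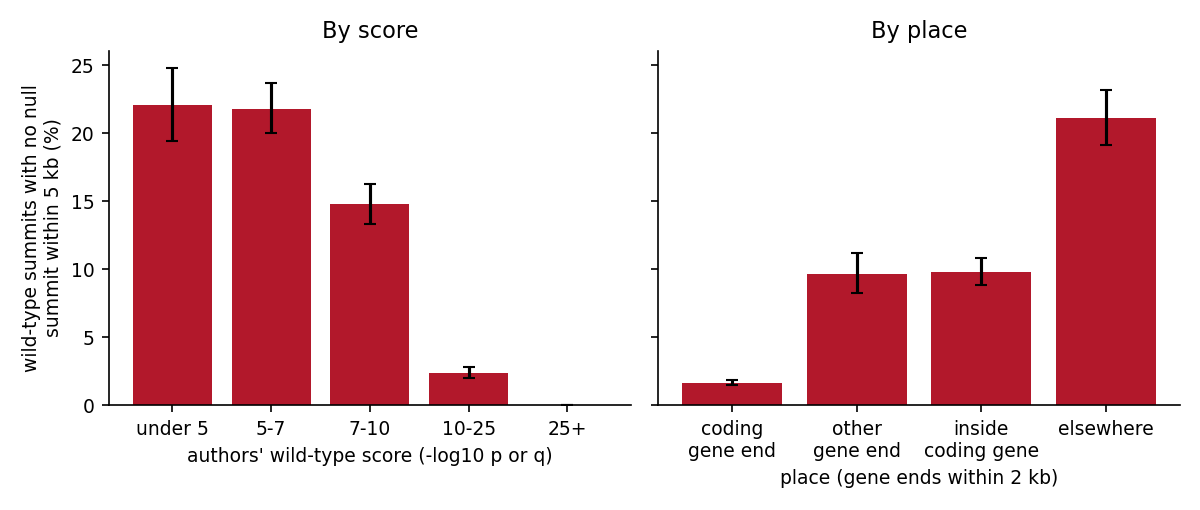
Share of wild-type H3K4me3 summits with no null summit within 5 kb, in percent, by the authors' wild-type score (left) and by place (right). Bars are shares and lines exact 95% binomial intervals; the share falls from 22.0% under a score of 5 to 2.41% at 10 to 25 and 0 at 25 and over, and rises from 1.66% at coding gene ends to 21.1% elsewhere.

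The nearest null summit lay 5005 bp to 1428040 bp away, with a median of 32891.5 bp. It was within 10 kb for 161 sites and farther than 50 kb for 426. The sites just inside the rule were at or near Tspyl2 (5005 bp), Cipc (5011 bp), Plek2 (5026 bp), Raet1e (5065 bp) and Wwc1 (5096 bp). Just outside it were wild-type summits near Ddx39b (4988 bp, score 29.3), Trim8 (4977 bp), Rab26 (4963 bp), Espn (4937 bp) and Lhx9 (4907 bp). Most sites stood alone: chaining sites within 5 kb gave 1054 loci, of which 995 held 1 site, 56 held 2 and 3 held 3 or more. Among autosomes the wild-type-only share was lowest on chromosome 17 (3.09%) and highest on chromosome 3 (6.23%), and it was 4.81% on the X chromosome. On the Y chromosome it was 1 of 10 summits.

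Wild-type-only sites lay mostly away from coding genes' ends. Only 277 (24.8%, interval 22.3 to 27.4) were within 2 kb of a coding gene end, against 73.7% of wild-type summits with a null summit and 49.1% of those summits once weighted to the same score bins. A further 155 (13.9%) were within 2 kb of the end of a gene of another type only, 344 (30.8%) lay inside a coding gene and 342 (30.6%) lay elsewhere. The weighted shares of the other wild-type summits were 10.0%, 26.9% and 14.0%. Intervals in this text are 95% Clopper-Pearson (exact binomial) limits. They reflect counting error alone and take summits as independent, although neighbouring summits are not. The difference in place held in every score bin: at 10 to 25, 32.7% of wild-type-only sites (48 of 147) and 66.4% of the other wild-type summits were at coding gene ends. Their median distance to a coding gene end was 14710.5 bp, against 413 bp for the other wild-type summits and 965 bp for those of them scoring under 25. Null-only sites were placed in a similar way, with 20.5% at coding gene ends and a median distance of 20759 bp. The rule has a part in these shares. A null summit lay within 2 kb of an end of 12688 of 21887 coding genes. A wild-type summit within 5 kb of such a summit cannot be wild-type only, whatever its score. Score bins do not allow for this, and its part in place, and in CpG and MBD at gene ends below, was not tested.

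**Figure D2:**
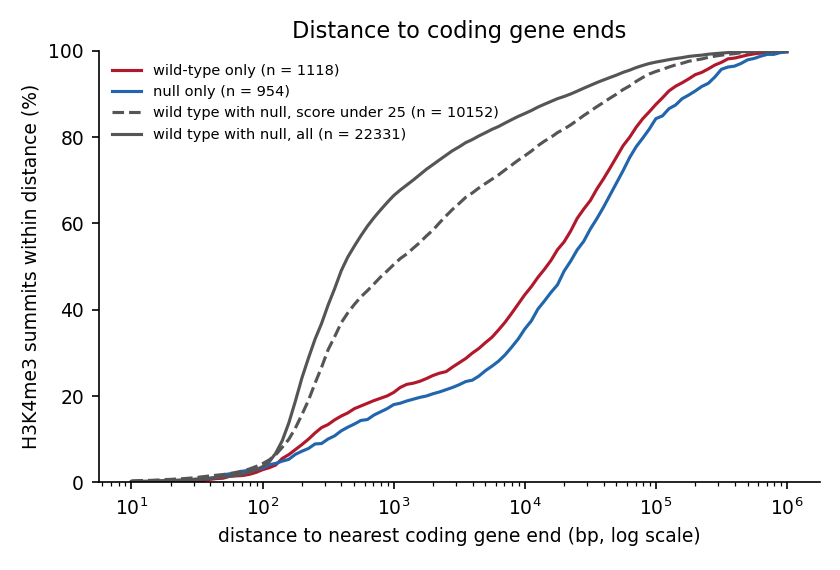
Cumulative share of H3K4me3 summits (percent) by distance to the nearest coding gene end (bp, log scale). The wild-type-only curve runs close to the null-only curve and below both curves of wild-type summits with a null summit, with medians of 14710.5 bp, 20759 bp, 413 bp (all) and 965 bp (score under 25).

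Seen from the other side, 1.66% of wild-type summits at coding gene ends were wild-type only (277 of 16724). The share was 9.65% at other gene ends, 9.83% inside coding genes and 21.1% elsewhere (342 of 1619). Long non-coding RNA genes were the nearest gene within 2 kb at 137 sites (12.3%), against 9.42% of the other wild-type summits. Transfer RNA genes were nearest at 1 wild-type-only site (0.0894%, interval 0.00226 to 0.497) and 201 of the other wild-type summits (0.900%). These shares of gene types were not split by score. Scores varied little with place, with medians of 6.95 at coding gene ends, 6.68 at other gene ends, 6.38 inside coding genes and 6.68 elsewhere.

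Where the strand of the coding gene was known, the wild-type-only sites were at the gene's far (3′) end more often than the other wild-type summits. A site counted as at the far end when that end, and no start of the gene, lay within 2 kb, and as at the start otherwise. The wild-type-only sites were at the far end in 40 of 205 cases (19.5%, interval 14.3 to 25.6) and at the start in 165. The other wild-type summits were at the far end in 347 of 13236 (2.62%), a share that was 10.9% under a score of 5, 8.23% at 5 to 7, 8.13% at 7 to 10 and 4.32% at 10 to 25. The wild-type-only shares in those bins were 25.6%, 22.5%, 11.3% and 21.2%, and the intervals overlapped under 5 and at 7 to 10 but not in the other bins. Null-only sites were at far ends in 19 of 129 cases (14.7%). Sema4a, Acta1, Foxf2 and Tbx1 are genes with a wild-type-only summit at the far end, as is Gdf15 for the highest-scoring of its 4 summits.

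Promoters next to the wild-type-only sites had fewer CpG than other marked promoters. For 190 coding promoters of 174 genes, a wild-type-only site was the nearest summit within 1 kb of the start, and their median CpG ratio was 0.532. It was 0.791 for 11869 promoters next to other wild-type summits and 0.199 for 8957 promoters with no summit within 1 kb. A ratio of 0.6 or more was found in 37.4% (71 of 190, interval 30.5 to 44.7) of wild-type-only promoters and 78.9% of those next to other wild-type summits. Within score bins under 5, 5 to 7, 7 to 10 and 10 to 25 the share was 28.6%, 38.2%, 41.8% and 33.3% for wild-type-only promoters. For the other wild-type promoters it was 51.6%, 54.1%, 57.9% and 67.8%, and the intervals of the bins overlapped except at 10 to 25 (16.5 to 54.0 against 65.8 to 69.7). Null-only promoters resembled the wild-type-only ones, with a median of 0.507 and 36.5% (46 of 126) at 0.6 or more. At non-coding genes the wild-type-only promoters (82) had a median ratio of 0.402, against 0.752 for those next to other wild-type summits.

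**Figure D3:**
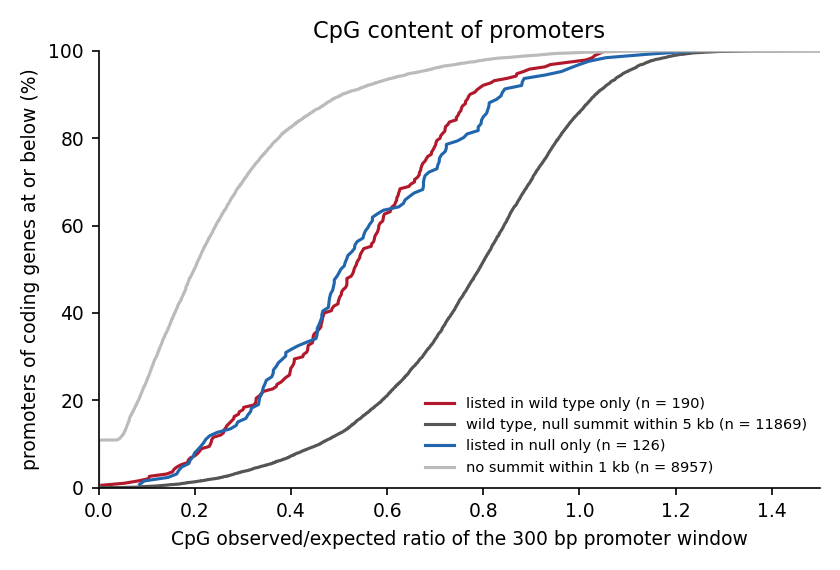
Cumulative share of coding promoters (percent) by ratio of observed to expected CpG in a 300-base window around the start, by class of the nearest H3K4me3 summit within 1 kb. Wild-type-only (median 0.532) and null-only (0.507) promoters lie between promoters with no summit (0.199) and promoters next to the other wild-type summits (0.791).

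Short sequence matches were counted in the same windows on both strands, and matches of different motifs were counted separately, also where they overlapped. GGGCGG, a motif of Sp factors that itself holds a CpG, was found in 53.7% (102 of 190) of wild-type-only coding promoters, 69.4% of those next to other wild-type summits and 46.2% of all 21263 coding promoters in the table. Within score bins under 5, 5 to 7, 7 to 10 and 10 to 25 its share was 42.9%, 51.5%, 55.2% and 66.7%, against 49.5%, 61.2%, 66.1% and 69.1%, and the intervals overlapped in each bin. TATAAA, a core of the TATA box, was found in 11.1%, 5.81% and 12.6%, and CCAAT in 37.4%, 38.1% and 38.2%. The palindromic motif of Nrf1, which holds CpG, was found in 3.16% (6 of 190), 10.8% and 6.38%, and a core of the Ctcf motif in 14.7%, 13.5% and 9.88%. For these motifs too the intervals overlapped in each score bin. These are matches of letters in a window and not measured sites.

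Of 21887 coding genes, 12758 carried H3K4me3 in wild type, meaning a summit within 2 kb of either end, 12688 had a null summit there, and 291 had a wild-type-only site. For 244 genes (1.91%) there was a wild-type-only site and no null summit within 2 kb of either end, and the other 47 had a null summit elsewhere at the gene. The highest score at a coding gene end was at Abcb9 (18.8), 274 bp from the gene end, with the nearest null summit 16044 bp away. Pabpc5, a poly(A)-binding protein gene on the X chromosome, followed with 16.1, 185 bp from the gene end and 362573 bp from the nearest null summit. Capg, an actin-capping protein, scored 14.4, and Actn2, an alpha-actinin of muscle Z-discs, 14.2. Ccdc65, needed for the assembly of motile cilia, scored 14.0, Fez1 13.7, Rab42 13.1 and Slc6a3 12.9. Gprin3 scored 12.3 at 217091 bp from the nearest null summit, and Ebf2, a transcription factor of neurons and adipocytes, 12.5 at 45352 bp. Among the 25 highest-scoring sites with a coding gene end within 10 kb, 15 were within 2 kb of it.

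Solute carriers, which move small molecules across membranes, were represented among the 244 genes. Slc6a3 and Slc18a2, the plasma membrane dopamine transporter and the vesicular monoamine transporter, each had a wild-type-only site, scoring 12.9 and 5.95 and lying 67179 bp and 84636 bp from the nearest null summit. The other solute carriers were Slc35d2 (10.2), Slc25a21 (8.40), Slc6a21 (6.78) and Slc25a48 (5.52), so that 6 of 226 solute carrier genes marked in wild type were wild-type only (2.65%, interval 0.980 to 5.69). This interval includes the 1.91% of all marked coding genes.

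Other families gave 2 or fewer wild-type-only genes each. Zfp zinc finger genes gave 2 of 330 (0.606%, interval 0.0735 to 2.17), Zfp185 (8.75) and Zfp951 (7.63). Tmem genes gave 1 of 170, Tmem130 (10.2). Ribosomal protein genes gave 0 of 87 and mitochondrial ribosomal protein genes 0 of 77, with upper bounds of 4.15% and 4.68%. Clustered protocadherin genes, a known target class of Smchd1, gave 0 of 28, with an upper bound of 12.3%. The intervals of these families include 1.91%.

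Among families of developmental transcription factors, T-box genes gave 2 of 6, Tbx18 (5.27) and Tbx1 (3.61), with an interval of 4.33 to 77.7 percent. The T-box interval lies above 1.91%, but it rests on 2 genes, and the Tbx1 site was at the gene's far end. Forkhead genes gave 1 of 26, Foxf2 (5.08). Sox genes gave 0 of 14 and Hox genes and keratin genes 0 of 3 each. The neural stem cell list of 24 had 23 genes marked in wild type and 1 with a wild-type-only site. That gene was Pax6, a homeodomain factor of radial glia and the eye, scoring 5.52 with the nearest null summit 6019 bp away. The imprinted list of 43 had 29 marked genes and 1 with such a site, Magel2, a paternally expressed gene of the Prader-Willi region, scoring 6.55. The neuron, glia, blood and microglia, endothelium, mesenchyme, brain regional identity, germ cell, housekeeping, X inactivation and chromatin lists held no gene with a wild-type-only site. In that order they held 15, 3, 1, 2, 2, 14, 2, 15, 3 and 14 genes marked in wild type. Beside the 1.91% of all marked coding genes, such counts are too small to read a result from any of these gene lists. The scores at Pax6 and Magel2 both lay below the wild-type-only median of 6.68.

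The share of sites with Ctcf nearby was close to that of the other wild-type summits over all sites and above it among high-scoring sites. A summit of either wild-type Ctcf list was found at 193 sites (17.3%, interval 15.1 to 19.6), against 15.4% of the other wild-type summits, 14.2% of them weighted to the same score bins, and 13.2% of null-only sites. The non-silencing list, which is the longest, accounted for 184 sites, the untransduced list for 82 and both for 73. The null Ctcf list was found at 109 sites (9.75%, interval 8.07 to 11.6), against 10.4% of the other wild-type summits and 8.97% of them weighted to score bins, both within that interval. With a limit of 5 kb in place of 1 kb the order of the wild-type Ctcf shares was the reverse, 26.4% against 29.1%.

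The share with Ctcf rose with the H3K4me3 score. It was 9.57% (20 of 209) under 5, 11.7% (50 of 427) at 5 to 7, 23.6% (79 of 335) at 7 to 10 and 29.9% (44 of 147, interval 22.7 to 38.0) at 10 to 25. For the other wild-type summits it was 8.80%, 13.0%, 17.5% and 17.6% (interval 16.6 to 18.6). The intervals of the highest bin did not overlap, whereas those of the other bins did, narrowly at 7 to 10. Null-only sites at 10 to 25 had Ctcf at 19.8% (24 of 121, interval 13.1 to 28.1), which overlaps the wild-type-only interval. At that score the difference was at sites more than 2 kb from coding gene ends, with 36.4% (36 of 99, interval 26.9 to 46.6) against 22.4% (interval 20.6 to 24.3) of the other wild-type summits there. Within 2 kb of coding gene ends at that score it was 16.7% (8 of 48) against 15.2%. By place, the share was 22.2% (76 of 342) elsewhere, 13.7% inside coding genes, 16.1% at other gene ends and 16.2% at coding gene ends.

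Ctcf summits next to wild-type-only sites lay closer to the H3K4me3 summit than those next to the other wild-type summits, and at distances like those at null-only sites. The median distance was 184 bp, 139 of 193 (72.0%) were within 250 bp, and the closest stood at 53 bp. The other wild-type summits with Ctcf had a median of 272 bp and 47.2% within 250 bp, and null-only sites 198 bp and 66.7% (84 of 126). Away from coding gene ends the medians were 181.5 bp and 207 bp, with 102 of 148 (68.9%) and 579 of 1067 (54.3%) between 100 and 250 bp.

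**Figure D4:**
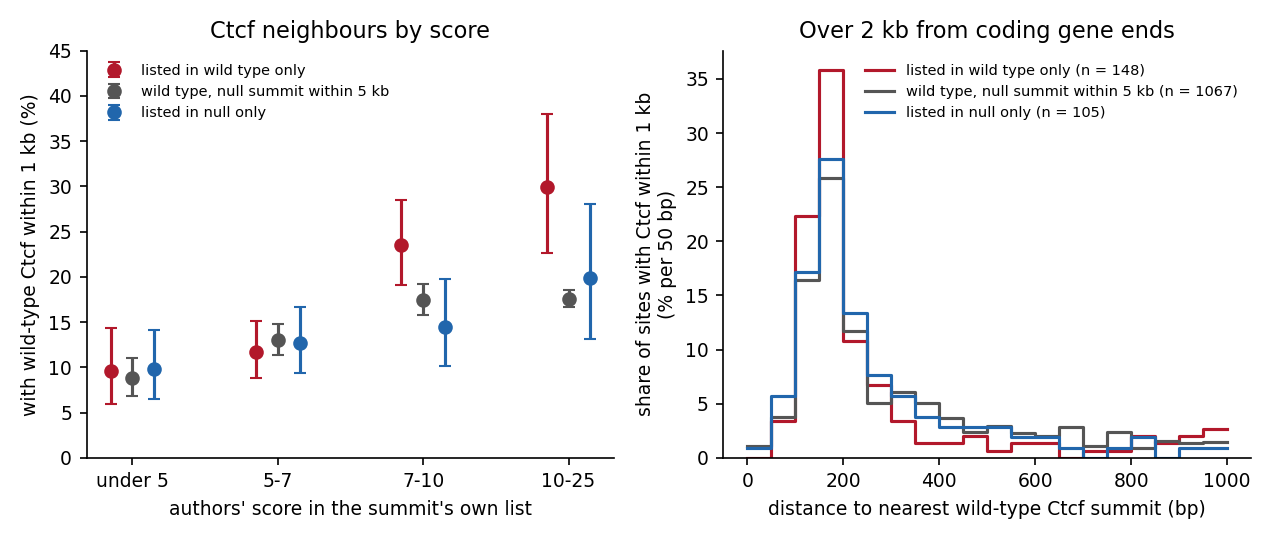
Left, share of H3K4me3 summits with a wild-type Ctcf summit within 1 kb (percent, exact 95% intervals) by the score in the summit's own list. Right, distance from H3K4me3 summits more than 2 kb from coding gene ends to the nearest wild-type Ctcf summit, in bins of 50 bp; wild-type-only sites reach 29.9% with Ctcf at scores of 10 to 25, and in all 3 sets the distances peak between 100 and 250 bp.

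Some of the highest-scoring sites had Ctcf nearby and some did not. The top site of the whole set, scoring 24.2, lay between genes with Chrd as the nearest coding gene at 62456 bp, and had a non-silencing Ctcf summit 91 bp away. Those next to it by score among sites with no coding gene end within 10 kb had Trmt9b (18.0), S1pr1 (17.8), Bace2 (16.5) and Plpp3 (16.2) as nearest coding genes, and 6 of the 10 highest of this kind had Ctcf within 1 kb. Among the 25 highest with a coding gene end within 10 kb, 10 had it. Abcb9, the second highest of all, had its nearest wild-type Ctcf summit 10649 bp away. At the Gdf15 locus, 4 wild-type-only sites lay within 1516 bp, the highest scoring 13.7, and the nearest Ctcf summits stood 162 bp from it in the untransduced list (Ctcf score 53.2) and 176 bp from it in the null list (40.4). Gdf15 encodes a stress-induced cytokine. Near Cyld, a deubiquitinase gene, the site scoring 12.3 had Ctcf at 122 bp and 148 bp in the wild-type lists and at 148 bp in the null list. Ctcf was therefore listed in the null cells at both of these sites, where H3K4me3 was not. Near S1pr1 too the null list had Ctcf, at 138 bp. For the sites with Chrd, Trmt9b and Bace2 as nearest coding genes it did not within 1 kb. The nearest null Ctcf summits lay 80187 bp, 185773 bp and 20772 bp from those sites.

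Most sites with Ctcf in both wild-type lists also had it in the null list. This held for 50 of 73 sites (68.5%, interval 56.6 to 78.9), against 1224 of 1584 (77.3%, interval 75.1 to 79.3) of the other wild-type summits and 36 of 49 (73.5%) of null-only sites, and these intervals overlap. Counted over sites with Ctcf in either wild-type list, the null list had it at 94 of 193 (48.7%, interval 41.5 to 56.0), against 2012 of 3443 (58.4%, interval 56.8 to 60.1) of the other wild-type summits, and these intervals do not overlap. Null-only sites had it at 58 of 126 (46.0%, interval 37.1 to 55.1). Over sites with Ctcf in the untransduced list, the null list had it at 52 of 82 (63.4%, interval 52.0 to 73.8). For the other wild-type summits this was 1311 of 1848 (70.9%, interval 68.8 to 73.0), and these intervals overlap. Sites with Ctcf in both wild-type lists and not in the null list within 1 kb numbered 23. The highest-scoring were inside Ido2 (16.2), an indoleamine dioxygenase gene, inside Tenm2 (14.2), a teneurin adhesion gene, and at Ifit1bl1 (12.9), an interferon-induced gene family member. Others were near Erbb4 (10.9), Dapl1 (10.3), Ston2 (9.90), Clu (9.20), Sema4a (8.45), Mboat4 (8.11) and H2az1 (8.00). At Ido2 the wild-type Ctcf summits lay 188 bp and 170 bp from the H3K4me3 summit, and the nearest null Ctcf summit lay 8093 bp away. At Clu, which encodes clusterin, they lay 238 bp and 208 bp away, and the nearest null one 214184 bp away. The null Ctcf list holds 11920 summits, the untransduced list 8292 and the non-silencing list 20483, and the part of list length in these counts was not tested.

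Methylated DNA lay near wild-type-only sites more often than near other wild-type summits. An MBD summit of either list was within 1 kb of 151 sites (13.5%, interval 11.6 to 15.7), against 5.49% of the other wild-type summits and 8.59% of them weighted to the same score bins. Null-only sites had the same share, 13.5% (129 of 954). The list named for wild type was near 147 sites and the list named for null near 100, with 96 near both. The difference was larger at coding gene ends, with 17.7% (49 of 277, interval 13.4 to 22.7) against 4.76% of the other wild-type summits there. Farther than 2 kb from coding gene ends it was 12.1% (102 of 841) against 7.55%, and by score bin the intervals there were apart only under 5, with 15.7% against 7.00%. At coding gene ends the share was 18.0% against 9.46% under a score of 5, 15.2% against 7.26% at 5 to 7 and 27.5% (22 of 80, interval 18.1 to 38.6) against 8.89% at 7 to 10, where alone the intervals did not overlap. At 10 to 25 both shares were 6.25%, on 3 of 48 wild-type-only sites. Within 5 kb an MBD summit was found at 53.9% of wild-type-only sites and 47.0% of the other wild-type summits. MBD summits that lay within 1 kb were mostly off the H3K4me3 summit itself, at a median of 682 bp for the list named for wild type and 687 bp for the list named for null.

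**Figure D5:**
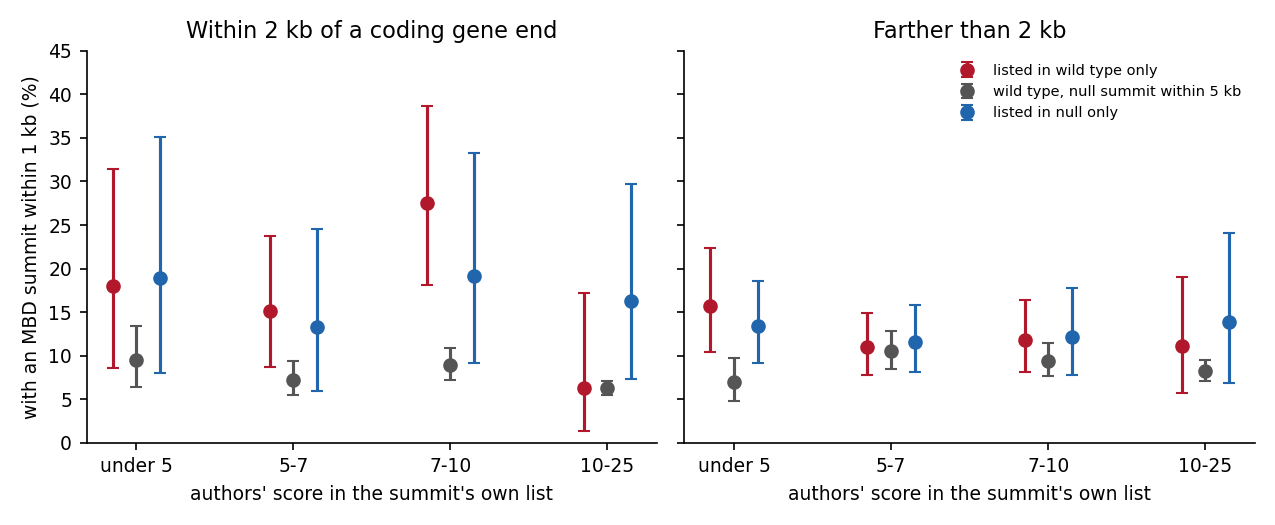
Share of H3K4me3 summits with an MBD summit of either list within 1 kb (percent, exact 95% intervals) by score, within 2 kb of a coding gene end (left) and farther away (right). At gene ends wild-type-only sites lie above the other wild-type summits at scores under 10, reaching 27.5% against 8.89% at 7 to 10, and are level with them at 10 to 25.

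Both Ctcf and MBD lay within 1 kb of 28 wild-type-only sites (2.50%). A site with none of a coding gene end within 2 kb, Ctcf within 1 kb or MBD within 1 kb was the most frequent kind, with 608 (54.4%, interval 51.4 to 57.3) against 20.0% of the other wild-type summits, 40.0% of them weighted to score bins, and 60.3% of null-only sites. Examples are the sites at 16.2 inside Robo1, an axon guidance receptor gene, 483452 bp from the nearer end, and at 15.5 inside Arid5b.

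Smchd1, whose list held 407 summits, was seldom near H3K4me3 summits, wild-type-only or not. A Smchd1 summit lay within 1 kb of 4 sites (0.358%, interval 0.0976 to 0.914), against 0.685% of the other wild-type summits and 0.890% of them weighted to score bins. Null-only sites had it at 16 of 954 (1.68%, interval 0.962 to 2.71), and this interval lies above that of the wild-type-only sites without overlap. The 4 wild-type-only sites were at Amer3 (H3K4me3 score 6.95, Smchd1 summit at 222 bp), Isl1 (5.95, 67 bp), a site 138567 bp from Parp8 (5.52, 152 bp) and a site 5656 bp from Nr2f2 (3.53, 223 bp). Amer3 encodes an APC-binding regulator of Wnt signalling, and Nr2f2 an orphan nuclear receptor of the forebrain and vessels. The site near Parp8 also had Ctcf of both wild-type lists at 151 bp and 143 bp, with the nearest null Ctcf summit at 2701 bp. At Isl1 the nearest null H3K4me3 summit was 715195 bp away. Sites near Rax and inside Celf4 had a Smchd1 summit at 3097 bp and 4949 bp. The wild-type-only interval includes both shares of the other wild-type summits.

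H3K27me3, the mark of Polycomb repression, lay within 1 kb of 11 wild-type-only sites in the wild-type list (0.984%, interval 0.492 to 1.75), against 0.300% of the other wild-type summits and 0.882% of them weighted to score bins. Null-only sites had it at 9 of 954. The 11 sites lay at or near Ebf2, Alx4, Sim1, Fezf2, Insrr, Slc30a3, Acta1, Ecel1, Ptf1a, Comp and Tbx18. Alx4 (11.1), Sim1 (8.00), Fezf2 (6.95), Ptf1a (5.95) and Tbx18 (5.27), given with their H3K4me3 scores, are developmental transcription factors with roles in craniofacial tissue, hypothalamus, cortical projection neurons, cerebellum and pancreas, and mesenchyme. At Sim1 the H3K27me3 summit stood 240 bp and at Alx4 603 bp from the H3K4me3 summit. The wild-type H3K27me3 list held 732 summits and the null list 77, and the null list lay within 1 kb of 1 wild-type-only site, near Obi1.

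The 3 loci with 3 or more wild-type-only sites each spanned at most 2011 bp. The Gdf15 locus, described above for its Ctcf summits, spans chr8:70629762-70631278. At Mid1, an X-linked ubiquitin ligase gene, 4 sites spanned 2011 bp inside the gene, 236 bp, 405 bp, 786 bp and 1225 bp from a RefSeq start of Mid1, and scored 4.54 to 11.3, and the nearest null summit lay 28037 bp away. Near Adamts6, a secreted metalloproteinase gene, 3 sites spanned 1083 bp and scored 7.37 to 8.11, with the nearest null summit at 230618 bp.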

How the data were processed

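Per the labels' protocols, ChIP-seq measured H3K4me3, H3K27me3, Smchd1 and Ctcf, and MBD capture measured DNA methylation. CASAVA 1.4 and MACS2 (version 2) and the genome build mm10 come from the submitters' processing notes. The aligner was not given in sources used here. The deposited files used are 10 of 11 lists of 1 bp peak summits, each called by the authors on pooled libraries, with a score that the authors deposited as −log10 of either a p-value or a q-value, unstated which. Reads and coverage were not used, so depth is unknown and precision is given as counting error. Summits on unplaced contigs were left out.

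The scripts used Python 3.11.15, pandas 2.3.3, numpy 2.4.6, scipy 1.17.1 and matplotlib 3.10.9. The distance search was tested on simulated data (200 of 200 planted sites found). Genes and promoters come from RefSeq on GRCm38.p6. Of 21887 coding genes, 17492 have a promoter in the table, with 0 promoters on chromosome 18. Coding genes whose ends are known without a strand give no start or far end. Weighted shares are the other summits' shares in each score bin, averaged with the wild-type-only sites' numbers per bin. Named genes are the nearest coding genes of the 25 highest-scoring sites with a coding gene end within 10 kb and of the 10 highest without, genes of fixed lists, sites near Smchd1 or H3K27me3, the 10 highest with Ctcf of both wild-type lists and not null, loci of 3 or more sites, and sites next to the 5 kb limit; genes of the families were named as well, 1 family is not reported here, and a few examples were picked after their values were seen. Members and lists were chosen with earlier results of these data known. The alternatives tried changed the distance rule, the score minimum, the neighbour and gene end distances, the gene set and the counting of chained sites.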

Additional observations from a re-analysis of the deposited data

How the results depend on the processing

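The number of wild-type-only summits was 1733 when a null summit had to be absent within 1 kb only, and stayed within 1.5 times of 1118 under the other rules tried (1315 at 2 kb, 957 at 10 kb, 909 at a score of at least 5, 1054 with chained sites counted once). The share at coding gene ends was 32.3% with ends within 5 kb, 38.6% with all annotated genes and 32.2% under the 1 kb rule, against 81.0%, 80.2% and 74.4% for the other wild-type summits. The share with Ctcf was 12.4% within 250 bp and 26.4% within 5 kb, against 7.28% and 29.1%, so that at 5 kb the order was the reverse. The share with MBD was 2.50% within 250 bp, 53.9% within 5 kb and 11.5% under the 1 kb rule, against 0.640%, 47.0% and 5.43%. No paired analysis was possible because each list pools its libraries, and leaving out a replicate could not be done for the same reason. Depth limits which weak summits pass the threshold in each genotype, and its part in these lists was not tested.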
